A study of Mus musculus with 217 samples.

Results

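Erg, Fli1, Ets1, Sox7, Sox17, Sox18, Klf2, Klf4, Tal1 and Gata2 encode transcription factors that set up and hold the identity of endothelial cells (ECs), the cells that line blood vessels. These 10 genes, of 52550 in the count tables, were followed in ECs of the mouse brain, lung and heart before and after lipopolysaccharide (LPS), a bacterial cell wall component that causes systemic inflammation. The genes were chosen by name, with earlier results of these data known, and the rule itself used no measured value. All 10 passed the filter on low counts in every comparison.

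All groups came from adult RiboTagEC mice of the C57BL/6J strain with the genotype Cdh5CreERT2/+; Rpl22HA/+. Every animal, controls included, received tamoxifen at 4 to 6 weeks of age (5 mg by gavage, 4 doses on alternate days), which lets Cre, driven by the promoter of the VE-cadherin gene Cdh5, put an HA tag on the ribosomal protein RPL22 in ECs. Ribosome-bound RNA, the EC translatome, was then pulled from tissue lysate with an anti-HA antibody and sequenced, so the model leaves out ECs in which Cre did not act, and RNA of other cells that came along with the beads is counted too. Groups were controls (0 hr) and mice killed 6, 24, 48, 72 or 168 hr after a single intraperitoneal dose of 10 mg/kg LPS.

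Sequencing runs of 1 library were summed, and 18 of 98 libraries with under 3% of their reads on genes were left out. The 80 kept libraries gave 5, 5, 4, 6, 4 and 4 replicates at 0, 6, 24, 48, 72 and 168 hr in brain and in heart, and 4, 4, 2, 6, 4 and 4 in lung. Counts on genes per library ran from 7226796 to 32891759 in brain, from 8136031 to 33050750 in heart and from 284457 to 43417945 in lung. File names placed the kept libraries in 3 library series (called 1, 2 and 4 here), and series was a term in every test. Levels are given as counts per 1000000 counts on genes (CPM). Differences are log2 fold changes with their standard error (SE) and the adjusted p of edgeR's quasi-likelihood test, corrected over all genes tested by the Benjamini-Hochberg method, with 0.05 as the threshold. The labels do not say that each library is another mouse, so these p-values measure the spread between libraries.

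A brain and a heart library labelled 6 hr did not carry the LPS response of their group. In the brain library labelled 6 hr replicate 6, the chemokine gene Cxcl1 stood at 1.31 CPM, against 0.538 to 2.25 at 0 hr and 243 to 2789 in the other 6 hr brain libraries. In the heart library labelled 6 hr replicate 5, Cxcl1 stood at 4.02 CPM, against 3.51 to 6.39 at 0 hr and 1208 to 4224 in the other 6 hr heart libraries. Ccl2, another chemokine gene, and the leukocyte adhesion genes Icam1 and Sele in these libraries also lay near the 0 hr levels and below every other 6 hr library of the tissue. Both libraries belong to library series 1, as does lung 6 hr replicate 4, which held 284457 counts and 3.40% of its reads on genes. That lung library did carry a part of the response. Its Cxcl1 and Ccl2 stood at 116 and 57.8 CPM, above the 0 hr highs of 8.69 and 24.9, while Icam1 was at 28.9 CPM (64.9 to 274.9 at 0 hr) and Sele at 0. Results at 6 hr are given with all kept libraries and again without these 3 libraries, an alternative chosen after seeing the data, in which the lung library is left out for its series and depth. The 48 hr libraries also stood apart from each other within each tissue. Klf2 in brain, for example, stood at 117, 132, 621, 145, 878 and 601 CPM in replicates 1, 2, 3, 4, 6 and 7, and replicates 3, 6 and 7 lay near the 24 hr values of 348 to 841. Cxcl1 in brain split the same way, so the time labels of these libraries are in doubt, and whether they hold was not tested. Fits were repeated without 48 hr replicates 3, 6 and 7, also chosen after seeing the data.

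**Figure D1:**
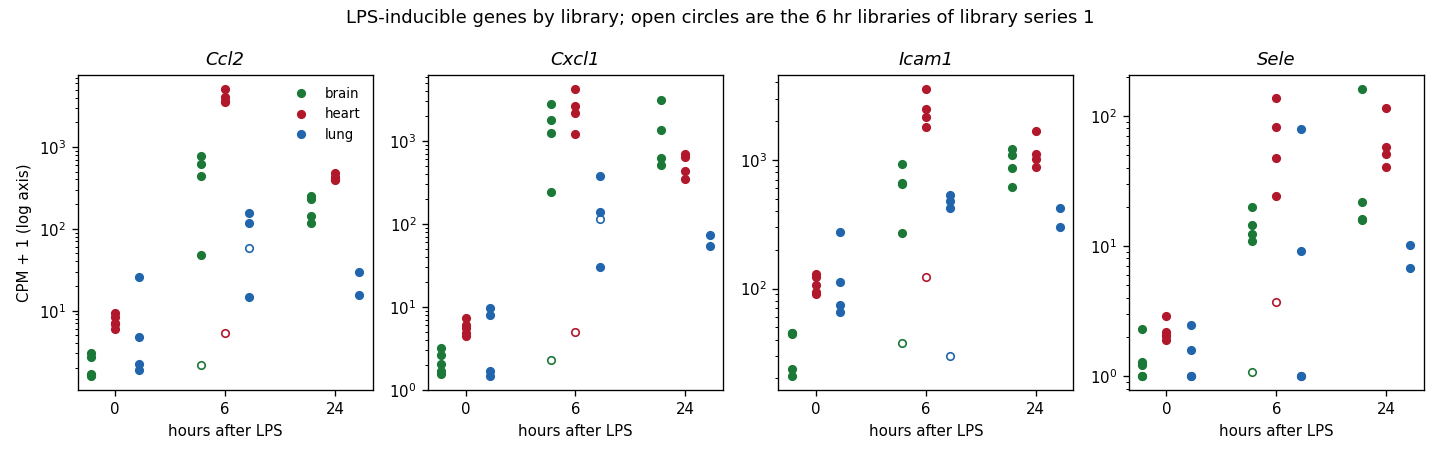
Levels of the LPS-induced genes Ccl2, Cxcl1, Icam1 and Sele (CPM + 1, log axis) at 0, 6 and 24 hr in brain, lung and heart, 1 point per library. Open circles are the 6 hr libraries of library series 1, and the brain and heart ones lie at the 0 hr level, Cxcl1 at 1.31 and 4.02 CPM.

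ECs read a small set of transcription factors in combination. ERG, FLI1 and ETS1 belong to the ETS family, which binds the core GGAA in the enhancers of nearly all EC genes, and ERG in particular keeps the resting endothelium calm. SOX7, SOX17 and SOX18 form the SOXF group, which acts in arterial and lymphatic fate and, for SOX17, in the blood-brain barrier. KLF2 and KLF4 are zinc finger factors switched on by blood flow through the kinases MEKK3 and ERK5 and the MEF2 factors, and they restrain adhesion and clotting genes. TAL1 (a basic helix-loop-helix factor) and GATA2 (a zinc finger factor) work together in blood stem cells and ECs, and GATA2 is also a factor of mast cells.

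The genes lie on 8 mouse chromosomes (GENCODE vM21 on GRCm38). Among the ETS genes, Erg lies at chr16:95359169-95586593 (minus strand), and Fli1 (chr9:32422204-32542861, minus) and Ets1 (chr9:32636221-32757820, plus) are neighbours. Of the SOXF genes, Sox17 at chr1:4490931-4497354 (minus) shares 804 exonic bases with the antisense gene Gm37587, and since the strand setting of the counting is not given in the sources used here, its counts are uncertain to that extent. Klf2 lies at chr8:72319033-72321656 (plus) and Klf4 at chr4:55527143-55532466 (minus). RefSeq promoter windows (GRCm38.p6) matched Erg, Klf2, Klf4, Tal1 and Gata2, 5 of the 10 genes. Fli1, Ets1, Sox7, Sox17 and Sox18 were not matched. The Klf2 window is shown because Klf2 had the highest level per length of the 10 genes at 0 hr and rose in the heart after LPS, and an Erg window because it holds letters of several families of the set. The Klf2 sequence runs 5′ to 3′ on the plus strand at chr8:72318812-72319032, up to the first annotated exon, with a match to the MEF2 motif in capitals, which starts 118 bases before the RefSeq start and occurs on either strand in 0.508% of 32851 promoter windows of 250 bases. The Erg sequence is the window of an internal RefSeq start, with no annotated exon in it, at chr16:95459349-95459598, on the minus strand. Capitals there mark matches on the other strand, which do not overlap each other. The first is to the letters ACAATG of SOX factors, found in 10.7% of windows. The next is to AGATAA of GATA factors, in 9.99% of windows. The last is to AGGAAG of ETS factors, in 29.5% of windows. The other Erg windows, at chr16:95586594-95586843 and chr16:95530366-95530615, held no match to the ETS, SOX, KLF, GATA or MEF2 letters searched. Neither did the windows of Klf4 and Gata2. A match describes the letters of the window and is no test of binding.
Klf2: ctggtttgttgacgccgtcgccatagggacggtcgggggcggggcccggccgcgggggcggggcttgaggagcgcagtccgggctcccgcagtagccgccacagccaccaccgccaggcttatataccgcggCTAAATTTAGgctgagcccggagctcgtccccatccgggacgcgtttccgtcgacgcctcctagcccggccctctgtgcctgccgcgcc
Erg: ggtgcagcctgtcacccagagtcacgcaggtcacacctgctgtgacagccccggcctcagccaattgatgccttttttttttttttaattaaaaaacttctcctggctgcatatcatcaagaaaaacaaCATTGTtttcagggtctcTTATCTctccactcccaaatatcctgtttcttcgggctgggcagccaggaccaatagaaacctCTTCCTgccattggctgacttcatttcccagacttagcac

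At 0 hr all 10 genes were detected in every library, and 21 of 30 comparisons between tissues passed the test. The heart had the higher level in most comparisons, whereas Klf2 and Gata2 were highest in the lung. Between brain and heart 8 of 10 genes were lower in brain and none was higher, with 54.8% of 17730 genes called (22.8% lower and 32% higher in brain). Between brain and lung, 5 were lower in brain and 1 was higher (64.3% of genes called, 26.4% lower and 37.9% higher), and between lung and heart 2 were higher and 5 lower in lung (61.1% called, 29.9% higher and 31.2% lower). These shares of called genes are high, so the count of members called is close to that of genes at large between brain and lung and between lung and heart. The median log2 difference of the 10 genes was -1.93 between brain and heart (all genes 0.09), -1.23 between brain and lung (all genes 0.42) and -1.13 between lung and heart (all genes -0.09). Every called difference had the same direction within library series 1 and within series 2.

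**Figure D2:**
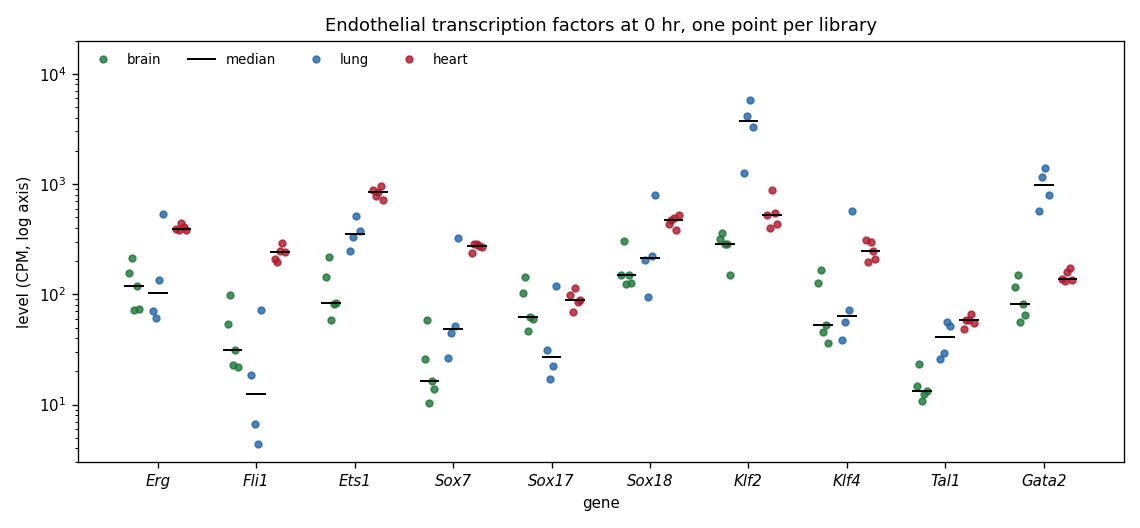
Level of each of the 10 genes at 0 hr (CPM, log axis) in brain, lung and heart, 1 point per library, with black bars at the group medians. Klf2 and Gata2 were highest in lung, and Erg, Fli1, Ets1 and Sox7 had their highest medians in heart.

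Klf2, the flow-responsive factor, was highest in lung and lowest in brain. It stood at 315, 358, 284, 287 and 149 CPM in brain, at 520.3, 402, 885, 546 and 431 in heart and at 1252, 4128, 5788 and 3296 in lung. The 3 groups did not overlap. The log2 difference was -3.72 between brain and lung (SE 0.432, adjusted p = 3.53e-06) and 2.71 between lung and heart (SE 0.413, adjusted p = 6.34e-05) by edgeR. Between brain and heart it was -1.01 (SE 0.384, adjusted p = 0.0370). This last call was lost on leaving out any 1 of 6 libraries (brain replicates 3, 4 or 5 and heart replicates 1, 3 or 4), with values of -1.04 to -0.77 and adjusted p up to 0.125. Klf4, its close relative, stood at 127, 165, 45.6, 52.8 and 35.9 CPM in brain and 311, 195, 300.4, 248 and 208 in heart (-1.98, SE 0.545, adjusted p = 0.00597). In lung, Klf4 ran from 38.8 to 566 CPM and overlapped both other tissues.

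Gata2 shared the high level in lung. Its values were 565, 1156, 1391 and 788 CPM in lung, 116, 149, 56.0, 82.3 and 65.5 in brain and 136, 133, 159, 172 and 134 in heart. Every lung library lay above every library of the other tissues, by a log2 difference of 3.46 over brain (given as brain minus lung, -3.46, SE 0.358, adjusted p = 1.12e-06) and 2.75 over heart (SE 0.344, adjusted p = 1.16e-05). The mast cell markers, whose cells also use GATA2, summed to 84.0 to 383 CPM in lung and 43.8 to 68.3 in heart at 0 hr, and 2 of 2 tested mast cell markers were higher in lung than in heart. Of all genes, 29.9% were higher in lung than in heart. Up to 3 of the mast cell markers had no count in a lung library at 0 hr, so the sum rests on few genes there. The part of mast cells in the Gata2 level was not tested. Tal1, the partner of GATA2 in blood and endothelium, was low throughout, at 10.7 to 23.1 CPM in brain, 25.8 to 56.3 in lung and 48.6 to 66.6 in heart. It was lower in brain than in lung (-1.54, SE 0.277, adjusted p = 0.000205) and heart (-2.02, SE 0.271, adjusted p = 1.34e-05), and lung and heart differed by -0.48 (adjusted p = 0.146).

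The ETS genes were highest in heart. Fli1, which acts in vessels and in the platelet lineage, had 207, 198, 247, 292 and 239.8 CPM in heart, 53.6, 98.4, 23.1, 31.0 and 21.8 in brain and 18.5, 6.65, 4.37 and 72.2 in lung. The heart libraries lay above all others, with a log2 difference of -2.86 between brain and heart (SE 0.528, adjusted p = 0.00028) and -4.04 between lung and heart (SE 0.636, adjusted p = 8.39e-05). Ets1, the founding member of the family, stood at 712 to 969 CPM in heart, 245 to 509.9 in lung and 58.2 to 217 in brain, without overlap between tissues. Its 3 comparisons passed the test, with log2 differences of -2.97 (brain and heart), -1.78 (brain and lung) and -1.19 (lung and heart). Erg, the ETS factor of the resting endothelium, was even across the heart libraries at 382 to 445 CPM. In brain it stood at 72.1 to 215 CPM (-1.88 against heart, SE 0.451, adjusted p = 0.00238), and in lung at 71.3, 60.5, 136 and 535. The lung and heart difference of Erg (-1.33, SE 0.491, adjusted p = 0.0286) was lost without heart replicate 3 or 4 or lung replicate 2 or 3, at -1.39 to -1.03 and adjusted p up to 0.104, and was -2.10 without lung replicate 4.

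Of the SOXF genes, Sox7 had the largest gap between brain and heart. It stood at 25.8, 58.7, 10.4, 16.4 and 13.8 CPM in brain and 238, 288, 287, 276 and 266 in heart, with no overlap (-3.81, SE 0.560, adjusted p = 3.32e-05). In lung, Sox7 had 26.7, 44.9 and 51.1 CPM in 3 libraries and 325 in replicate 4, and the brain and lung difference of -2.05 was -1.05 without that library (adjusted p = 0.0396). The lung and heart difference of Sox7 (-1.76, adjusted p = 0.0152) was lost without lung replicate 2 or 3, at adjusted p of 0.0538 and 0.0517. Sox18, a factor of lymphatic and arterial fate, stood at 383 to 522 CPM in heart, 123 to 302 in brain and 94.1 to 789 in lung, and differed between brain and heart alone (-1.58, SE 0.388, adjusted p = 0.00276).

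Sox17, the SOXF factor of arteries and the blood-brain barrier, had the smallest difference between brain and heart. Its values were 102, 145, 46.5, 62.9 and 59.9 CPM in brain, 99.4, 68.5, 113, 85.2 and 89.1 in heart and 31.3, 16.9, 22.4 and 119 in lung. Brain and heart overlapped, with a log2 difference of -0.38 (SE 0.374, adjusted p = 0.406), and the sign differed between library series 1 (0.56) and 2 (-0.76). Sox17 was higher in brain than in lung (0.97, SE 0.405, adjusted p = 0.0473), a call that 8 of the 9 libraries could each end when left out, at 0.74 to 1.03 with adjusted p of 0.0515 to 0.156, while without lung replicate 4 the value was 1.65 (adjusted p = 0.000189). The lung and heart difference of -1.35 (adjusted p = 0.0128) was lost without lung replicate 2 or 3 (-1.09 and -1.21).

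Per kilobase of exon, the order at 0 hr was led by Klf2 in all 3 tissues, at 151 ± 42.4 CPM per kb in brain (SD, n = 5), 302 ± 105 in heart (n = 5) and 1958 ± 1021 in lung (n = 4). Sox18 followed, at 105 in brain, 283 in heart and 202 in lung, and in heart the gap between Klf2 and Sox18 was smaller than the SD of Klf2. Gata2 ranked 3 of 10 in lung (181 CPM per kb), 6 in brain and 8 in heart. At the low end stood Tal1 in brain (3.41) and heart (13.1) and Fli1 in lung (7.30). In the later groups Sox18 led in brain at 72 hr and in heart at 72 and 168 hr, by less than 1 SD of the replicates each time.

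EC content moved with these differences. The summed level of 9 EC markers that are not transcription factors (among them Pecam1, Emcn and Ptprb) was 1203 to 2447 CPM in brain, 2920 to 12764 in lung and 6120 to 7496 in heart at 0 hr, and 7 of the 9 were lower in brain than in heart. Markers of other cells also differed by tissue, with glial markers at 999.8 to 5712 CPM in brain, lung epithelial markers at 6412 to 12636 in lung and cardiomyocyte markers at 3300 to 6416 in heart. In such bulk pulldowns a smaller share of ECs and less RNA per EC cannot be told apart. Set against the mean of the 9 EC markers, Klf2 lay 3.59 ± 1.05 log2 units above them in lung (SD, n = 4), 1.39 ± 0.535 above in brain and 0.07 ± 0.416 above in heart (n = 5 each), and Gata2 1.81 ± 0.989 above in lung and 1.79 ± 0.0789 below in heart (a mean of -1.79). In brain the Gata2 mean was -0.21. Against the markers, Erg, Sox17, Sox18, Klf4 and Tal1 also had higher means in brain than in heart. Their means were 0.19, -0.41, 0.65, -0.51 and -2.74 in brain and -0.34, -2.49, -0.16, -1.03 and -3.14 in heart. Fli1, Ets1 and Sox7 stood lower in brain, at -1.38, 0.04 and -2.25 against -1.12, 0.71 and -0.91. These are descriptions with no test.

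At 6 hr after LPS, Erg, Fli1 and Sox17 fell in heart and Klf2 rose. With all kept libraries these were 4 of 10 genes, a share near that of all genes (42.8% of 16024 called, 22.4% higher and 20.3% lower). Without the library labelled 6 hr replicate 5, Erg, Fli1, Sox7, Sox17, Sox18, Klf4 and Tal1 fell and Klf2 rose, 8 of 10 called against 58.4% of 15990 genes (27.8% higher and 30.5% lower). The median of the 10 genes was -1.28 (all genes -0.08), and with all libraries -0.78 (all genes -0.05). When the 3 tissues shared 1 fit, only Erg was called in heart with all libraries. That fit's share of all genes called is not given here, so this count is no result about the members.

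Klf4, the flow-responsive factor related to KLF2, had the largest fall in heart once replicate 5 was left out. It stood at 31.1, 51.9, 16.3 and 121 CPM in 6 hr replicates 1 to 4, against 195 to 311 at 0 hr, and at 446 in replicate 5. The first 4 lay below every 0 hr library and the fifth above all of them. Its log2 fold change was -1.08 with all libraries (SE 0.536, adjusted p = 0.105) and -2.26 without replicate 5 (SE 0.435, adjusted p = 0.000106). Klf2 went the other way in the same libraries, with 1220.0, 1081, 1009, 1396 and 928 CPM at 6 hr against 402 to 885 at 0 hr. Replicate 5 also lay above every 0 hr library for Klf2, and the rise was 0.98 with all libraries (SE 0.272, adjusted p = 0.00692) and 0.99 without replicate 5 (SE 0.291, adjusted p = 0.00555). Within library series 1 alone the Klf2 difference was 1.02 and within series 2 it was 0.98. The series 1 value rests on replicate 5, which lacked the LPS response of its group. It is thus no support for a change after LPS.

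Erg, which holds the resting state, and its relative Fli1 fell together in heart. Erg stood at 73.6, 117, 85.6 and 170.4 CPM in 6 hr replicates 1 to 4 and 390.1 in replicate 5, against 382 to 445 at 0 hr. Fli1 had 39.7, 77.0, 25.6 and 104 CPM and 265 in replicate 5, against 198 to 292. For both genes replicates 1 to 4 lay below, and replicate 5 within, the 0 hr range. The log2 fold change of Erg was -1.27 with all libraries (SE 0.327, adjusted p = 0.00434) and -1.95 without replicate 5 (SE 0.253, adjusted p = 6.08e-07), and that of Fli1 -1.24 (adjusted p = 0.0112) and -2.09 (SE 0.263, adjusted p = 3.75e-07). Ets1, the third ETS gene, had 942, 1191, 841, 598 and 586 CPM against 712 to 969 at 0 hr, and its log2 fold change was -0.04 with all libraries and 0.07 without replicate 5 (SE 0.233, adjusted p = 0.814).

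The SOXF genes fell less evenly in heart. Sox17 had 15.7, 27.5, 9.92 and 33.7 CPM in 6 hr replicates 1 to 4 and 142 in replicate 5, against 68.5 to 113 at 0 hr. Its log2 fold change of -1.12 with all libraries (SE 0.410, adjusted p = 0.0307) was lost without any 1 of 0 hr replicates 3, 4 or 5 or 6 hr replicates 1 to 4 (-1.10 to -0.85, adjusted p up to 0.0993), and was -2.11 without replicate 5 (SE 0.275, adjusted p = 6.43e-07). Sox18 stood at 111, 162, 68.9 and 328 CPM and 510.3 in replicate 5, against 383 to 522, with -0.95 (adjusted p = 0.139) and -1.63 without replicate 5 (SE 0.532, adjusted p = 0.0110). Sox7 stood at 137, 200.3, 76.5 and 214 CPM and 266 in replicate 5, against 238 to 288, with -0.60 (adjusted p = 0.154) and -0.92 without it (SE 0.357, adjusted p = 0.0299). For all 3 genes, replicates 1 to 4 lay below the 0 hr libraries. Tal1 at 38.6 to 45.2 CPM in replicates 1 to 4 also lay below its 0 hr range of 48.6 to 66.6, with -0.34 (adjusted p = 0.0581) and -0.45 without replicate 5 (adjusted p = 0.00975), and leaving out 0 hr replicate 1 instead also made the call (-0.41, adjusted p = 0.0284). Gata2 overlapped its 0 hr range and did not pass the test (0.06 with all libraries and -0.18 without replicate 5). Within library series 2 alone, the differences were -1.96 for Erg, -2.27 for Fli1, -2.28 for Sox17, -2.56 for Klf4 and -1.70 for Sox18.

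EC markers fell in the same heart libraries. Their sum was 1083 to 7127 CPM at 6 hr against 6120 to 7496 at 0 hr, 7 of 9 fell with all libraries and 9 of 9 without replicate 5, and their median log2 fold change without it was -1.73. Platelet markers summed to 3.32 to 123 CPM and neutrophil and monocyte markers to 17.7 to 74.1 at 6 hr, and 2 of 2 and 4 of 7 tested rose without replicate 5. The part of EC content in the falls was not tested.

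**Figure D3:**
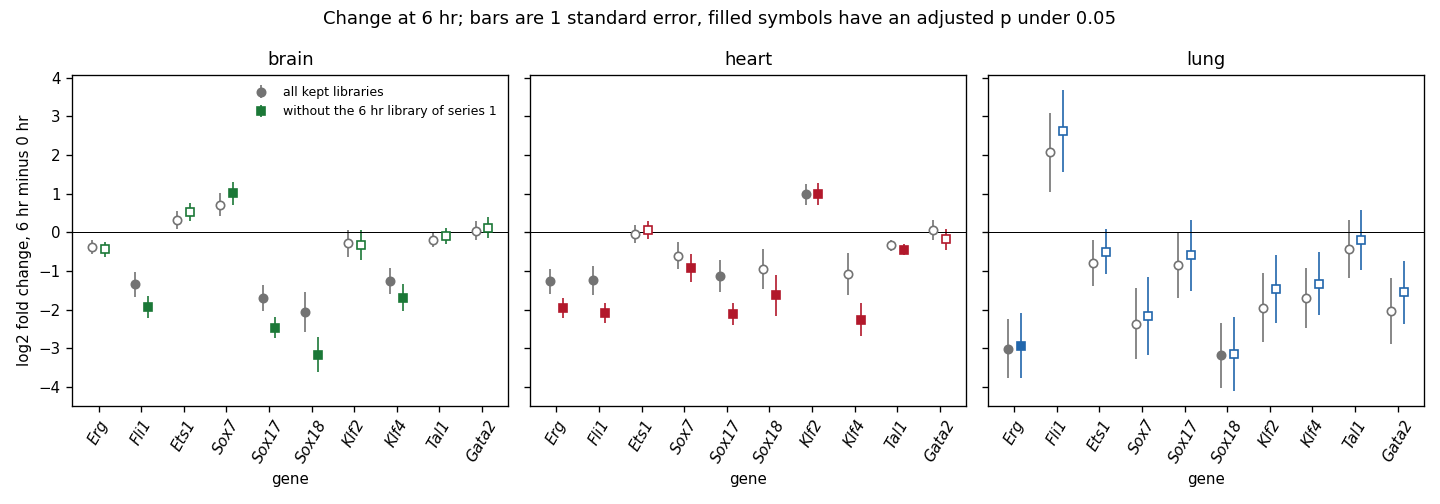
Log2 fold change at 6 hr against 0 hr for each of the 10 genes in brain, heart and lung, with bars of 1 SE. Grey circles use all kept libraries and coloured squares leave out the 6 hr libraries of library series 1, and filled symbols passed an adjusted p of 0.05. In heart Klf2 lies above 0 (0.99) and Klf4 lowest (-2.26), and in brain Sox18 lies lowest (-3.16) and Sox7 highest (1.00), all without those libraries.

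In brain, Fli1, Sox17, Sox18 and Klf4 fell at 6 hr, with and without the library labelled 6 hr replicate 6, and Erg did not pass the test. With all kept libraries, 4 of 10 genes were called, all lower, against 6.44% of 19234 genes (2.23% lower). Without replicate 6, 5 of 10 were called against 14.3% of 19243 genes (7.63% higher and 6.71% lower), the fifth being Sox7, which rose. The median of the 10 genes was -0.34 with all libraries (all genes 0.00387) and -0.38 without replicate 6 (all genes -0.02). With all libraries, none of the 10 was called when the term for library series was dropped or when the 3 tissues shared 1 fit. The shares of all genes called in those fits are not given here, so this is no result about the members.

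Sox18 fell most in brain. It stood at 150.0, 302, 123, 151 and 126 CPM at 0 hr and at 11.5, 10.3, 16.2 and 35.3 in 6 hr replicates 1 to 4, with 157 in replicate 6. Replicates 1 to 4 lay below every 0 hr library and replicate 6 within their range. The log2 fold change was -2.06 with all libraries (SE 0.515, adjusted p = 0.0133), -1.87 without 6 hr replicate 3 (adjusted p = 0.0513) and -3.16 without replicate 6 (SE 0.458, adjusted p = 1.83e-05). Sox17 had 11.2, 11.0, 12.2 and 17.0 CPM and 82.6 in replicate 6, against 46.5 to 145 at 0 hr, with -1.70 (SE 0.339, adjusted p = 0.00252) and -2.46 without replicate 6 (SE 0.274, adjusted p = 5.46e-07). Sox7 differed from its SOXF relatives. Its 6 hr values of 24.8, 47.0, 31.3, 19.2 and 26.3 CPM overlapped the 0 hr values of 10.4 to 58.7, and its log2 fold change was 0.71 (SE 0.304, adjusted p = 0.192), 1.00 without replicate 6 (SE 0.285, adjusted p = 0.0170) and 0.97 without 0 hr replicate 2 (adjusted p = 0.0408).

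Fli1 fell in brain from 21.8 to 98.4 CPM at 0 hr to 5.63, 8.52, 5.06 and 11.3 in 6 hr replicates 1 to 4, with 60.7 in replicate 6. Its log2 fold change was -1.35 (SE 0.321, adjusted p = 0.00942) and -1.93 without replicate 6 (SE 0.294, adjusted p = 3.47e-05). Erg had 66.0, 64.8, 78.7, 64.4 and 157 CPM against 72.1 to 215 at 0 hr, overlapping, with -0.39 with all libraries (SE 0.175, adjusted p = 0.231) and -0.44 without replicate 6 (SE 0.195, adjusted p = 0.149). Klf4 had 11.7, 13.6, 12.4 and 27.1 CPM and 104 in replicate 6, against 127, 165, 45.6, 52.8 and 35.9 at 0 hr. Its log2 fold change of -1.26 (SE 0.334, adjusted p = 0.0198) was lost without any 1 of 0 hr replicates 2 or 4 or 6 hr replicates 1, 2 or 3 (-1.21 to -1.10, adjusted p up to 0.0719), and was -1.69 without replicate 6 (SE 0.345, adjusted p = 0.00105). Klf2 had 175, 148, 214, 255 and 309.5 CPM against 149 to 358, with -0.28 with all libraries (SE 0.348, adjusted p = 0.745) and -0.33 without replicate 6 (SE 0.390, adjusted p = 0.675). Ets1, Tal1 and Gata2 did not pass the test either, at 0.31, -0.20 and 0.04 with all libraries and 0.53, -0.09 and 0.12 without replicate 6. Within library series 2 alone, the differences were -3.03 for Sox18, -2.14 for Sox17, -1.77 for Fli1, -1.53 for Klf4 and 1.11 for Sox7.

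In the brain, EC markers moved less evenly than in the heart. Their sum ran from 477 to 1764 CPM at 6 hr against 1203 to 2447 at 0 hr, with 4 of 9 lower and 1 higher, both with and without replicate 6. Glial markers summed to 2231 to 7036 CPM at 6 hr against 999.8 to 5712, with 1 of 8 higher. Their part in these differences was not tested.

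In lung only Erg and Sox18 passed the test at 6 hr, both lower, and the libraries were thin. The median log2 fold change of the 10 genes was -1.82 with all libraries (all genes -0.42). Without 6 hr replicate 4 it was -1.40 (all genes -0.31). With all libraries 6 of 10 had an unadjusted p under 0.05 by edgeR, against 3960 of 17058 genes. A gene that did not pass is thus not shown to be unchanged. Erg stood at 71.3, 60.5, 136 and 535 CPM at 0 hr and 33.4, 10.2, 9.84 and 28.9 at 6 hr, and Sox18 at 205, 94.1, 223 and 789 and then 14.3, 32.0, 21.9 and 57.8. Neither gene's groups overlapped. The log2 fold changes were -3.01 for Erg (SE 0.759, adjusted p = 0.0201) and -3.18 for Sox18 (SE 0.841, adjusted p = 0.0253), 2 of 10 genes, both lower, against 4.83% of 17058 (2.27% lower). Without 6 hr replicate 4, Erg passed the test (-2.93, adjusted p = 0.0438) and Sox18 did not (-3.15, adjusted p = 0.0569), against 3.95% of genes. The call of Erg was also lost without 0 hr replicate 3 (-2.87, adjusted p = 0.0755) or 6 hr replicate 2 (-2.76, adjusted p = 0.0618), and that of Sox18 without 0 hr replicate 3 or 6 hr replicates 1 or 2 (-3.33 to -2.91, adjusted p up to 0.0953). Without the deep 6 hr replicate 3, 5 members were called, and in libraries with at least 10% of reads on genes none was. Shares of all genes in these fits are not given here, so these counts are no result about the members. In the joint test among tissues, leaving out replicate 3 raised the share of all genes called from 17.3% to 32.6%.

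The lung libraries at 6 hr differed in depth and in the other genes. Replicates 1, 2 and 4 had 2678119, 2745503 and 284457 counts and 6.93%, 8.12% and 3.40% of reads on genes, against 40128330 counts and 33.9% in replicate 3. Klf2 stood at 142, 262 and 173 CPM in the thin libraries and 3142 in replicate 3, against 1252 to 5788 at 0 hr, and Gata2 at 23.3, 137 and 0 against 781 in replicate 3. Fli1, Sox7, Sox17, Klf4, Tal1 and Gata2 were at 0 in replicate 4, where 3 counts correspond to 10.5 CPM. Fli1 stood at 7.76, 263, 6.79 and 0 CPM in replicates 1 to 4, against 4.37 to 72.2 at 0 hr, so that 1 thin library, replicate 2, carried its log2 fold change of 2.07 (SE 1.02, adjusted p = 0.219), or 2.62 without replicate 4 (adjusted p = 0.159). EC markers summed to 646 to 3958 CPM at 6 hr against 2920 to 12764 at 0 hr. Of the 9, 3 fell with all libraries (median -1.89, all genes -0.42) and 2 without replicate 4 (median -1.56, all genes -0.31). Neutrophil and monocyte markers summed to 0 to 6738 CPM at 6 hr against 275 to 580 at 0 hr, and cardiomyocyte markers to 128 to 2627 against 67.9 to 157. Of these, 3 of 8 and 2 of 8 rose, with and without replicate 4. The part of these markers in the falls of Erg and Sox18 was not tested. With edgeR's RLE scaling of libraries in place of TMM, the median of all genes shifted from -0.42 to -0.11 in this comparison.

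Whether the response differed between tissues was tested as an interaction. At 6 hr with all kept libraries, 5 of 10 genes differed among the 3 tissues, Erg (adjusted p = 0.0253), Fli1 (0.00474), Sox7 (0.0381), Klf2 (0.0157) and Gata2 (0.0457), against 17.3% of 22007 genes by edgeR. Without the 6 hr libraries of series 1, Erg (0.00787), Fli1 (0.000101) and Sox7 (0.0119) passed (23% of genes called), and Klf2 (0.0661) and Gata2 (0.125) did not. The thin lung libraries moved these calls. Without lung 6 hr replicate 2, in which Fli1 was high, Erg alone passed (0.0492, 12.7% of genes called) and Fli1 did not (0.931). Without both this library and those of series 1, Erg (0.0300) and Sox7 (0.0378) passed and Fli1 did not (0.292), against 21.2% of genes. Leaving out lung 6 hr replicate 1 or 4 gave Erg, Fli1 and Sox7 (12.9% and 14.3% of genes), and leaving out replicate 3 gave Ets1 beside the 5 genes (32.6% of genes). With animal codes read from the file names as a block, Fli1, Sox7, Klf2 and Gata2 passed at 6 hr (18.3% of genes) and Erg did not (0.0562). With all kept libraries and no such block, no member passed at 24, 48, 72 or 168 hr, where 0.545%, 1.75%, 0.932% and 0.0636% of genes did and 0 or 1 member had an unadjusted p under 0.05. Brain and heart, which had no thin library, were then compared alone, as an alternative chosen after seeing the data. With all their libraries no member passed edgeR's test (10.8% of genes called), and Erg, Sox7 and Klf2 had an unadjusted p under 0.05. Without the 6 hr libraries of series 1, 3 of 10 genes differed, against 26.8% of genes. The Erg response was higher, that is less negative, in brain by 1.48 (SE 0.318, adjusted p = 0.000468), the Sox7 response was higher in brain by 1.88 (SE 0.470, adjusted p = 0.0023) and the Klf2 response lower in brain by 1.34 (as brain minus heart, -1.34, SE 0.490, adjusted p = 0.0359). The brain and heart responses of Fli1 differed by 0.12 (adjusted p = 0.896).

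After 6 hr few members passed the test. With all kept libraries no member was called between consecutive times by edgeR, and 0 to 3 of 10 in brain, 0 to 4 in lung and 0 to 1 in heart had an unadjusted p under 0.05 per step. Over the 4 steps DESeq2 called 2 brain, 4 lung and 0 heart differences, and limma-voom called 0. The shares of all genes called by these 2 tools are not given here, so their counts are no result about the members. By edgeR, the share of all genes called for 24 against 6 hr was 0.291% in brain, 4.74% in heart and 0.00586% in lung. In the same order it was 0 in each tissue for 48 against 24 hr, for 72 against 48 hr 0, 0.00624% and 0.0176%, and for 168 against 72 hr 8.29%, 0.0686% and 1.13%. Without the 6 hr libraries of series 1, Fli1 (1.83, SE 0.313, adjusted p = 0.00243), Sox17 (1.42, SE 0.288, adjusted p = 0.0104) and Sox18 (2.16, adjusted p = 0.0168) rose in brain from 6 to 24 hr, against 1.14% of genes. With all libraries these values were 1.24, 0.67 and 1.07 (adjusted p 0.146 to 0.535). In heart, Erg (1.47, SE 0.276, adjusted p = 0.000370), Fli1 (1.90, SE 0.285, adjusted p = 4.04e-05), Sox17 (1.91, SE 0.308, adjusted p = 8.05e-05) and Klf4 (1.43, SE 0.465, adjusted p = 0.0219) rose, against 30.6% of genes. With all libraries these values were 0.73, 0.98, 0.81 and 0.14 (adjusted p 0.145 to 0.910). These comparisons share the 6 hr libraries with those against 0 hr.

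Against 0 hr, 1 gene was called at a later time with all kept libraries. The share of all genes called in brain was 11.2% at 24 hr, 14.2% at 48 hr and 0 at 168 hr, in heart 16.2%, 4.19%, 0.275% and 0 at 24, 48, 72 and 168 hr, and in lung 0.375%, 0.598%, 0.193% and 0.0117%. Fli1 was higher in brain at 72 hr, with 64.3, 60.6, 143 and 117 CPM against 53.6, 98.4, 23.1, 31.0 and 21.8 at 0 hr. The groups overlapped, and its log2 fold change was 1.22 (SE 0.337, adjusted p = 0.0421, with 3.53% of genes called). The call was lost without any 1 of 8 of the 9 libraries (1.16 to 1.31, adjusted p 0.0540 to 0.0991), and without the 6 hr library of series 1 it was 1.19 (adjusted p = 0.00788, 4.93% of genes called). In that same fit Fli1 then fell from 72 to 168 hr in brain (-0.92, SE 0.294, adjusted p = 0.0370, 13.7% of genes called). Sox17 in brain was lower at 24 hr (-1.04, SE 0.264, adjusted p = 0.0101, 13.4% of genes called) and at 48 hr (-0.83, SE 0.225, adjusted p = 0.0145, 15.9%) in that fit and not with all libraries. Its values were 37.5, 39.8, 67.8 and 63.4 CPM at 24 hr and 34.1 to 79.7 at 48 hr, against 46.5 to 145 at 0 hr. With 48 hr replicates 3, 6 and 7 left out as well, the 48 hr value was -1.06 (SE 0.255, adjusted p = 0.0126, 7.27% of genes called).

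In heart at 24 hr, Sox7 had 143, 114, 97.6 and 80.7 CPM, all below the 0 hr values of 238 to 288, and Klf4 had 192, 161, 129.9 and 83.9 against 195 to 311. Neither passed the test with all kept libraries. In the fit without 48 hr replicates 3, 6 and 7, in which the 24 hr libraries were all kept, Sox7 passed (-1.20, SE 0.279, adjusted p = 0.00373, 30.3% of genes called), and it was then higher at 48 than at 24 hr (1.28, SE 0.303, adjusted p = 0.00881, 17.7% of genes). In the same fit for brain, Klf2 was lower at 48 hr than at 0 hr (-0.97, SE 0.283, adjusted p = 0.0485, 5.22% of genes) and at 24 hr (-1.45, SE 0.317, adjusted p = 0.00543, 14.6% of genes). Klf2 in brain was among the values that set 48 hr replicates 3, 6 and 7 apart, and Sox7 in heart split the same way. With all kept libraries neither was called at 48 hr, against 0 or 24 hr. The 48 hr differences of both genes in this fit thus follow from that choice and are no support for a change after LPS. The time points share an estimate of the spread, so the 24 hr call of Sox7 is also tied to that choice. Sox18 in brain at 24 hr stood at 104, 107, 61.6 and 42.1 CPM, below the 0 hr values of 123 to 302, and did not pass the test. In heart at 24 hr Sox18 stood at 376 and 438 CPM in replicates 1 and 2 and at 91.3 and 67.9 in replicates 4 and 5, which belong to library series 4. By 168 hr Erg stood at 334 to 483 CPM in heart, 134 to 196 in brain and 254 to 652 in lung, and Klf2 at 148 to 520.2, 135 to 649.7 and 532 to 2349. Tal1 kept a narrow range in heart across the later times, from 50.2 to 95.6 CPM.

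**Figure D4:**
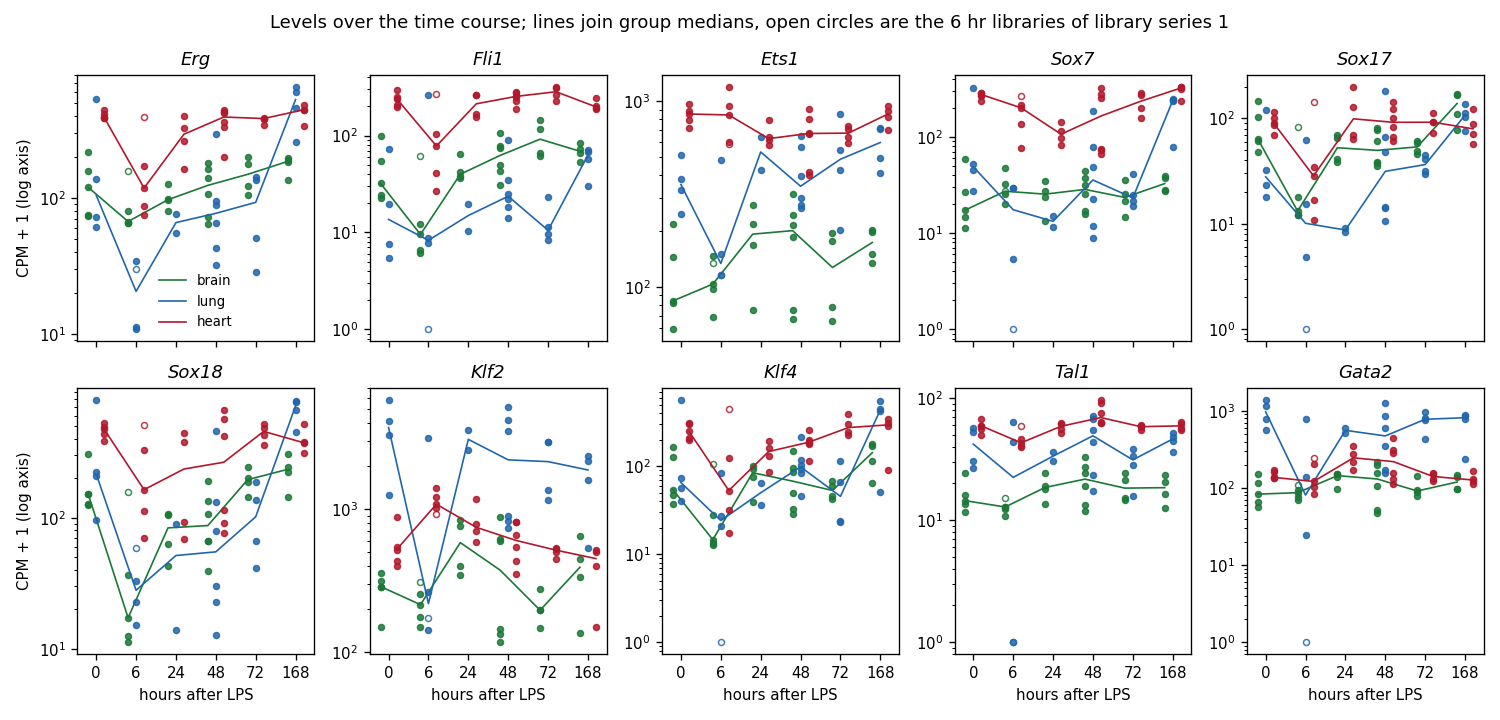
Levels of the 10 genes (CPM + 1, log axis) at 0, 6, 24, 48, 72 and 168 hr after LPS, spaced evenly, in brain, lung and heart, 1 point per library. Lines join group medians, and open circles are the 6 hr libraries of library series 1. Sox18 and Sox17 drop at 6 hr in brain and heart, and Klf2 has its highest heart values at 6 hr (928 to 1396 CPM).

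Most genes that the KLF factors restrain rose at 6 hr. Of 8 (adhesion molecules, chemokines and clotting genes), 7 rose in brain and in heart, with and without the 6 hr libraries of series 1, and 4 rose in lung. With all kept libraries 6.44% of genes were called in brain (4.21% higher) and 42.8% in heart. The largest log2 fold changes with all libraries were Cxcl1 (10.12) and Ccl2 (9.03) in brain and Ccl2 (9.04) and Cxcl1 (8.87) in heart, and the list median was 3.96 in brain and 5.07 in heart. Ccl2, Cxcl1, Icam1 and Sele are in this list and were also the genes that set the libraries of series 1 apart, so the higher values without those libraries (10.58, 9.58, 9.52 and 9.32, with medians of 4.41 and 5.51) follow from that choice. The exception was Edn1, the vasoconstrictor endothelin (0.60 in brain and -0.09 in heart with all libraries, neither called).

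Genes that KLF2 or KLF4 induce were split in heart, where 42.8% of genes were called with all libraries and 58.4% without replicate 5. With all libraries the gap junction gene Gja4 (0.87) and S1pr1 (0.74), the receptor that steadies the barrier, rose, and the anticoagulant gene Thbd (-1.68) and the lipid phosphatase gene Plpp3 (-1.03) fell. Without replicate 5 these were 1.01, 0.79, -2.96 and -1.54, and the other 2 of the 6 fell as well, Ass1 (-1.20) and the nitric oxide synthase gene Nos3 (-1.08). In brain none of the 6 passed with all libraries, and without replicate 6 S1pr1 rose (0.82, against 0.57 with all libraries) and Nos3 fell (-0.94, against -0.81).

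ETS factor targets fell more often than they rose in heart. Of 16, 11 fell and 2 rose with all libraries (42.8% of genes called, 20.3% lower) and 12 and 2 without replicate 5 (58.4% of genes called, 30.5% lower). In brain the list was mixed, with 7 lower and 3 higher with all libraries (6.44% of genes called, 2.23% lower) and 8 and 4 without replicate 6 (14.3%, 6.71% lower). In lung 3 fell with all libraries (4.83% of genes called, 2.27% lower) and 1 without replicate 4 (3.95%), and none rose. The EC surface gene Clec14a fell by 2.10 in heart and 1.89 in brain on the log2 scale with all libraries (by 3.27 and 2.67 without those of series 1), and the angiopoietin receptor gene Tek by 1.71 and 2.15 (by 3.11 and 3.29). The endoglin gene Eng also fell in heart (-1.53 with all libraries). The small GTPase gene Rhoj rose in both tissues (1.44 in heart and 1.54 in brain with all libraries, 1.70 and 1.89 without those of series 1). Cdh5, which encodes VE-cadherin and whose promoter drives the Cre of this model, fell in heart (-0.73) and rose in brain (0.95) with all libraries, at -1.01 and 1.22 without those of series 1. At 0 hr 14 of the 16 were lower in brain than in heart and 14 lower than in lung, with Cldn5, a tight junction gene of the blood-brain barrier, higher in brain than in heart (1.35).

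Partners of TAL1 and GATA2 fell more often than they rose. Of 10, 3 fell and 1 rose in brain and 5 fell and 2 rose in heart with all libraries, and 6 and 1, and 6 and 2, without those of series 1. The shares of all genes called were 6.44% in brain and 42.8% in heart with all libraries, and 14.3% and 58.4% without them. In lung 4 fell with all libraries (4.83% of genes called) and 3 without replicate 4 (3.95%), and none rose. Runx1, a blood cell factor, rose in brain (2.25) and heart (3.62), and Cbfa2t3, a corepressor of the TAL1 complex, fell (-1.32 and -1.81), with all libraries. Lyl1, the close relative of TAL1, fell in heart (-1.59) and stood at -2.06 in brain without passing, and was at -2.76 and -3.78, both called, without those libraries. The other GATA genes gave no call in brain or heart with all libraries, and all 4 tested in heart fell without replicate 5, Gata5 (-1.45), Gata3 (-1.43), Gata6 (-0.99) and Gata4 (-0.66).

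Other relatives moved in both directions. Of all genes, 6.44% were called in brain and 42.8% in heart with all libraries, and 14.3% and 58.4% without those of series 1. In heart, calls of the other ETS genes without replicate 5 were near this share. So were calls of the MEKK3-ERK5 route with all libraries. Of the other ETS genes, 4 of 19 rose and 1 fell in brain and 5 of 16 rose and 4 fell in heart with all libraries, and 7 and 1, and 5 and 5, without those of series 1. Spi1, the ETS factor of myeloid cells, rose in brain and in heart (2.27 in heart), and Elk3 fell (-0.96 and -1.53), with all libraries. Among other KLF genes, Klf6, an injury-induced factor, rose in brain (1.65) and heart (1.31) with all libraries. Of 13 tested in brain 1 rose and 1 fell, and of 12 in heart 2 rose, or 3 rose and 2 fell without replicate 5. Of 11 genes of the MEKK3-ERK5 route to KLF2, 4 fell and 1 rose in heart, with and without replicate 5, among them Map3k3 (-1.38), Mef2c (-1.38) and the ERK5 gene Mapk7 (0.52, the one that rose), given with all libraries. In brain none passed with all libraries, and Map3k3 rose without replicate 6 (0.85).

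Set against the EC markers of the same library, most members in heart stood higher at 6 hr than at 0 hr. Klf2 went from 0.07 ± 0.416 log2 units above the mean of the 9 markers at 0 hr (SD, n = 5) to 3.01 ± 1.29 at 6 hr with all libraries (n = 5) and 3.56 ± 0.465 without replicate 5 (n = 4). Ets1 went from 0.71 ± 0.127 to 2.53 ± 1.53, or 3.13 ± 0.886 without replicate 5. The same held for genes that fell in CPM without replicate 5. In those libraries Tal1 went from -3.14 ± 0.0769 to -1.24 ± 0.516, Sox7 from -0.91 ± 0.103 to 0.56 ± 0.531, Sox18 from a mean of -0.16 to 0.53 and Erg from -0.34 ± 0.0879 to 0.11 ± 0.0810. The ranges of Erg, Sox7 and Tal1 at 0 and 6 hr did not overlap in these libraries. With all libraries the 6 hr means were -1.62 for Tal1, 0.26 for Sox7, 0.42 for Sox18 and 0.00133 for Erg. Gata2, which was not called, went from -1.79 ± 0.0789 to 0.01 ± 0.700 with all libraries and 0.29 ± 0.383 without replicate 5. Klf4 (-1.03 ± 0.314 to -1.19 ± 0.757), Sox17 (-2.49 ± 0.284 to -2.27 ± 0.467) and Fli1 (-1.12 ± 0.145 to -0.86 ± 0.535) changed by less than the SD at 6 hr, without replicate 5.

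In brain, Sox18, Sox17, Fli1 and Klf4 had lower means against the markers at 6 hr, and the other members had higher means, as most did in heart. Sox18 went from 0.65 ± 0.253 at 0 hr to -1.07 ± 0.937 at 6 hr with all libraries and -1.41 ± 0.633 without replicate 6. Sox17 went from -0.41 ± 0.0793 to -1.52 ± 0.540 and -1.75 ± 0.238, and Fli1 from -1.38 ± 0.359 to -2.19 ± 0.656 and -2.47 ± 0.229. The Klf4 mean went from -0.51 to -1.26 and -1.49. Erg went from 0.19 ± 0.224 to 0.53 ± 0.357 and 0.60 ± 0.381, and Sox7 from -2.25 ± 0.358 to -0.94 ± 0.905 and -0.61 ± 0.619. The Ets1 mean went from 0.04 to 0.92 and 1.14, and that of Gata2 from -0.21 to 0.61 and 0.83. Klf2 went from a mean of 1.39 to 1.92 and 2.09, and Tal1 from -2.74 to -2.15 and -1.92. These are descriptions with no test, and markers fell in the same libraries.

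**Figure D5:**
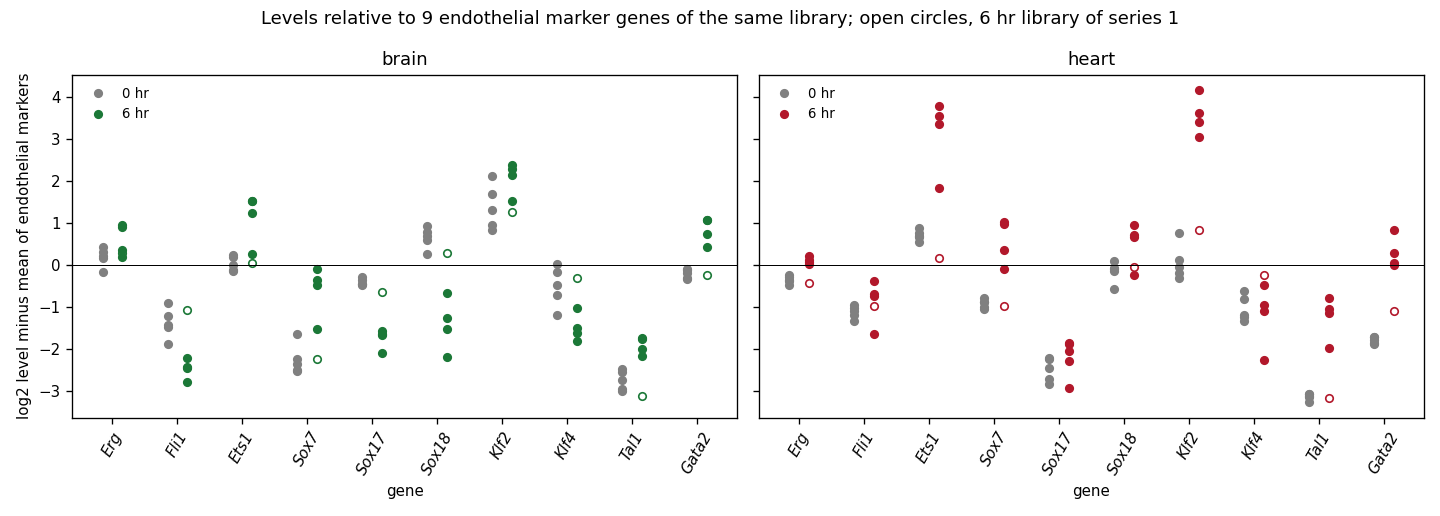
Level of each of the 10 genes relative to 9 EC markers (log2 of CPM + 1, minus the mean of the markers in the same library) in brain and heart at 0 and 6 hr, 1 point per library. In heart Klf2, Ets1, Tal1, Sox7 and Gata2 lie higher against the markers at 6 hr than at 0 hr in the filled points. In brain the means of Sox17, Sox18, Fli1 and Klf4 are lower at 6 hr, and those of the other members are higher.

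Patterns were also compared across the 18 groups of tissue and time, as Pearson correlations of group means of log2 CPM, which share libraries and, in lung at 6 hr, include the thin ones. The genes most like each member were Phactr2 (r = 0.97) and Cav2 (0.97) for Erg, Rflnb (0.96) for Fli1, Rftn1 (0.96) for Ets1, Pcdh17 (0.95) for Sox7, Palmd (0.93) for Sox17, Slc9a3r2 (0.95) for Sox18, Phc2 (0.97) for Klf2, Phactr2 (0.96) for Klf4, Mdfic (0.98) for Tal1 and Trim41 (0.98) for Gata2. Among the members themselves, Erg ran closest with Klf4 (0.94) and Sox7 (0.91), and Erg and Klf2 had a correlation of -0.07.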

How the data were processed

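RNA on tagged EC ribosomes was measured by sequencing in 3 tissues (brain, lung, heart) at 0 hr and 5 times after LPS. The authors aligned reads to mm10 with STAR 2.4.2 and counted reads per gene with HTSeq 0.6.1, per the labels' processing notes, and deposited 1 table of raw counts per sequencing run. The annotation release and strand setting are not given in the sources used here.

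The 217 runs were summed to 98 libraries, and 80 with at least 3% of reads on genes were kept, as the runs of 1 library differed little (chi-square per gene 1.32 to 1.45, against 16.7 to 1584 between libraries of a group). Of kept reads, 9.19% fell in no feature, 0.65% were ambiguous and 43.0% were not unique, and these stayed out of the totals, so genes with near copies may be undercounted. Library totals set the precision, and 3 counts were taken as the floor. Symbols matched 52403 of 52550 gene IDs.

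Each tissue was fitted with edgeR 4.0.16 in R 4.3.3 (filterByExpr, TMM, glmQLFit and glmQLFTest) with terms for time and library series, tissues at 0 hr in 1 fit, and the interaction in a joint fit of 22007 genes. SE was taken from the log2 fold change and the F statistic. P-values were adjusted over all genes tested (threshold 0.05), and the code was tested on simulated data. Relative levels used log2(CPM + 1), and other log2 levels a prior count of 2. Library series was read from file names. DESeq2 1.42.0, limma-voom (limma 3.58.1), other scalings, filters, libraries and covariates were alternatives. Figures used matplotlib 3.10.9.

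The members and gene lists were chosen with earlier results of these data known. Other genes were named from the lists, at most 4 per list and comparison, those past the threshold first by size of change. Genes outside this rule (Ass1, Nos3, Edn1, Cdh5, Cldn5, Elk3, Lyl1 and Mapk7) were named after their values were seen. As genes of like pattern, up to 3 per member with the highest correlation were kept, among genes averaging 3 or more log2 CPM over the 18 groups.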

Additional observations from a re-analysis of the deposited data

Results flagged for a closer look

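Of 170 groups of 4 to 6 libraries, 11 had 1 library far from the rest, where chance alone gives about 1 in 20. In brain, the library labelled 6 hr replicate 6 stood apart for Erg (log2 CPM 7.30) and Sox17 (6.37), above the other 6 hr libraries. Also in brain, 0 hr replicate 2 stood high for Sox18 (8.24) and 0 hr replicate 5 low for Klf2 (7.22). At 168 hr, lung replicate 1 was low for Sox7 (6.28), Klf4 (5.63) and Gata2 (7.91), and heart replicate 1 was low for Sox7 (7.90) and Klf4 (6.48). In CPM, Klf4 in lung at 168 hr was 49.6 in replicate 1 and 426 to 551 in the others. Erg in heart was low in 48 hr replicate 3 (7.64) and 72 hr replicate 3 (8.42).

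The 6 hr response differed among the 3 tissues for Erg (adjusted p = 0.0253), Fli1 (0.00474), Sox7 (0.0381), Klf2 (0.0157) and Gata2 (0.0457), by edgeR's interaction test with all kept libraries. Without lung 6 hr replicate 2, a thin library with Fli1 at 263 CPM, Fli1 gave 0.931, Sox7 0.0721, Klf2 0.0612 and Gata2 0.136, and Erg alone passed (0.0492).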

How the results depend on the processing

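Counts below are of members called by edgeR or the tool named. The 21 calls between tissues at 0 hr stayed between 17 and 25 under every alternative (25 with a replicate block, 18 to 25 on leaving out each library). After LPS, the main counts were 5 in brain, 2 in lung and 4 in heart. Leaving out the 6 hr libraries of library series 1 gave 8, 1 and 8, 1 fit of all 3 tissues gave 0, 7 and 1, and no filter on low counts gave 4 in lung and 7 in heart. Dropping the library series term gave 0 in brain. In lung, limma-voom gave 1, libraries with at least 1000000 counts 1, and 0 came from including all libraries, from those with at least 10% of reads on genes and from a fit of 0 hr with 1 time point alone. Leaving out each library gave 3 to 8 in brain, 0 to 5 in lung and 3 to 8 in heart. Between consecutive times the main count was 0 in each tissue. It became 2 (DESeq2), 4 (no filter), 1 (RLE scaling), 1 (all libraries) and 4 (without the 6 hr libraries of series 1) in brain, 4 (DESeq2) and 2 (no filter) in lung, and 1 (no filter) and 4 (without the 6 hr libraries of series 1) in heart, with 0 to 4, 0 to 3 and 0 to 4 on leaving out each library. The 5 differences among tissues became 3 under DESeq2, RLE scaling, no series term, all libraries, libraries of at least 1000000 counts, 1 shared series effect, without the 6 hr libraries of series 1, and with brain and heart alone without them. They became 1 to 6 on leaving out each lung 6 hr library, 2 without the 6 hr libraries of series 1 and lung 6 hr replicate 2, 1 without library series 2 or 4 and 0 in libraries of at least 10% of reads on genes and in brain and heart alone with all their libraries. Without 48 hr replicates 3, 6 and 7, 7 members were called after LPS in heart, and 3 in brain and 1 in heart between consecutive times. Levels of members set those replicates apart, so counts without them follow in part from that choice. Without those replicates and the 6 hr libraries of series 1, 10 were called after LPS in brain and 10 in heart, and 8 in brain and 10 in heart between consecutive times. Shares of all genes called moved as well. Without the 6 hr libraries of series 1, the 6 hr shares went from 6.44% to 14.3% in brain and 42.8% to 58.4% in heart. In lung the 6 hr share went from 4.83% to 3.95%. Without those 48 hr replicates, the share in heart at 24 hr went from 16.2% to 30.3%. In brain it went from 14.2% to 5.22% for 48 against 0 hr and from 0 to 14.6% for 48 against 24 hr. A count without its share is no result about the members. Klf4 between 6 and 24 hr in heart, 0.14 and not called, ran from -0.16 to 1.43 on leaving out each library, below 0 without 6 hr replicate 1, 2 or 3 or 24 hr replicate 2. The cause was not tested in any of these cases.

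Replicate numbers are shared between groups. Residuals of same-numbered libraries of a tissue correlated at a median of -0.03 (151 pairs, 41 above 0.1), and those of different tissues at 1 time point at 0.137 (73 pairs, 45 above 0.1). Libraries of different tissues whose file names share an animal code correlated at a median of 0.15 (74 pairs, 48 above 0.1), against -0.04 for other codes (292 pairs). Brain, lung and heart libraries may thus come from 1 animal, which the labels do not state and the tests between tissues do not use. With the animal code as a block, 23 differences between tissues at 0 hr were called, with the Sox7 difference between brain and lung lost (-0.97, adjusted p = 0.0924). In the interaction 5 were called, with Erg lost at 6 hr (0.0562) and Sox7 gained at 168 hr (0.0300, 4.1% of genes called). With the replicate block, 5 members were called after LPS in brain, 4 in lung and 8 in heart, 1 between consecutive times in heart and 5 among tissues. No share of all genes is given here for the replicate block or for the animal block at 0 hr. Those counts are thus no result about the members. Depth limits the lung at 6 hr, where 1 library held 284457 counts. The alternatives on the 6 hr libraries of series 1, the lung 6 hr and 48 hr libraries, the 10% limit, brain with heart alone and the animal code in the interaction were chosen after seeing the data.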

Other observations

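At 48 hr the values of several members fell into separate clusters within a tissue, with no test made. The 6 libraries are given in the order of replicates 1, 2, 3, 4, 6 and 7, of library series 2, 2, 1, 1, 4 and 4. In heart, Sox7 stood at 255, 278, 65.8, 322, 73.5 and 72.4 CPM and Sox18 at 663, 414, 89.5, 565, 112 and 75.4. In lung, Sox18 stood at 129.9, 78.6, 11.7, 453, 29.1 and 21.9 CPM. Klf2 was high where these SOXF genes were low, at 737, 899.7, 3512, 831, 5149 and 4159 CPM in lung and 117, 132, 621, 145, 878 and 601 in brain. The chemokine gene Cxcl1 in brain stood at 50.8, 14.9, 2008, 360.4, 1088 and 2770.0 CPM, with 509 to 3121 at 24 hr and 18.7 to 257 at 72 hr. In heart Cxcl1 stood at 103, 64.2, 295, 148, 354 and 198 CPM. Replicates 3, 6 and 7 lay on 1 side for Sox7 and Sox18 in heart, Sox18 in lung, Klf2 in brain and lung and Cxcl1 in brain and heart, and replicates 3 and 4 are of the same library series.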
